A study of Mus musculus with 4 samples.

Results

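Tissue factor (F3), its inhibitors, the plasminogen activators and the thrombin receptors of mouse melanocytes were compared between a non-pigmented and a pigmented cell line. The genes were taken by symbol: F3, Tfpi, Tfpi2, Thbd, Plat, Plau, Plaur, F2r, F2rl1 and Prss23. Every probe set annotated to exactly 1 of these symbols was used, which gave 17 of 45037 probe sets without controls and 9 of 18193 genes. F2rl1 was not analysed here. The set was chosen on values of these same arrays: an earlier analysis had shown F3 and Prss23 among the genes that differ most. The differences between the lines are therefore descriptions of these genes, given without a test.

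The study hybridised biotin-labelled total RNA from cultured skin melanocytes of Balb/c background to 4 Affymetrix mouse arrays. In the non-pigmented line (2 arrays) both copies of the tyrosinase gene carry a point mutation. In the pigmented line (2 arrays) that mutation was corrected, and its genotype is given as wild type. Both lines were grown in RPMI 1640 with FCS, 2-mercaptoethanol and TPA, a phorbol ester, at 37°C. Each group is 1 cell line, and the labels do not say that its arrays came from separate cultures. A p-value below thus reflects only how far these samples vary, and that variation could be technical.

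Tissue factor is a membrane protein that binds clotting factor VIIa and starts coagulation, which ends in thrombin. Thrombin cleaves protease-activated receptors on the cell surface and so also acts as a signal to cells. Plasminogen activators form the opposing arm: they make plasmin, which dissolves fibrin and degrades matrix around migrating cells. Phorbol esters activate protein kinase C and, through it, the transcription factor AP-1, a known regulator of several of these genes in other cells.

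The windows of 250 bases before the annotated starts are shown for 4 genes. F3, F2r and Prss23 had the largest differences, and Plaur holds the same motif. RefSeq sequences of build GRCm38.p6 were used, in which 15 start windows matched 6 of the genes (F3, Tfpi, Tfpi2, Plaur, F2r and Prss23). Each window is given 5′ to 3′ on the strand of the gene, and capitals mark the AP-1 motif TGANTCA, which reads the same on both strands. For Prss23, which has several starts, a window that holds the motif was chosen.
F3, chr3:121723287-121723536, plus strand: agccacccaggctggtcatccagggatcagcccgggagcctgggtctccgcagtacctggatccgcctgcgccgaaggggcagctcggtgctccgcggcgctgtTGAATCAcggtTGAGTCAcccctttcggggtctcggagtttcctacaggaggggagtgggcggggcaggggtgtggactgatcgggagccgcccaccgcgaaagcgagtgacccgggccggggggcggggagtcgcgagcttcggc
Plaur, chr7:24462233-24462482, plus strand: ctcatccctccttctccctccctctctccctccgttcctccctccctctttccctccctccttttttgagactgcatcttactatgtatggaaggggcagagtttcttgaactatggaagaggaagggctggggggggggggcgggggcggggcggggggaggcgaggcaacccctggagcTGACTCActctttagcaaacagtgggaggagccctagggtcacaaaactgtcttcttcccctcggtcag
F2r, chr13:95618467-95618716, minus strand: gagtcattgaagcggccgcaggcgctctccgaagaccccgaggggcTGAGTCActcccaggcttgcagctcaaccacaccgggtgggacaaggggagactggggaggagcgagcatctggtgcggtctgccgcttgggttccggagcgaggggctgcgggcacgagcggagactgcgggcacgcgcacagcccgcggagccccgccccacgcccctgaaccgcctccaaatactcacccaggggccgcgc
Prss23, chr7:89518205-89518454, minus strand: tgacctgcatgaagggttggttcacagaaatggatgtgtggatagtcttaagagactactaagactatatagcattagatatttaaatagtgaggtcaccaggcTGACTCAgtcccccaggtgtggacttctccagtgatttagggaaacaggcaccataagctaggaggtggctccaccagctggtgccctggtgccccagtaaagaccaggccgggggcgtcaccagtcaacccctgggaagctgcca

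The AP-1 motif was in 6 of the 15 windows, and in 6.75% of all 32851 windows of that length. The 6 windows belong to 5 of the 6 genes, but the share of all genes with the motif was not counted. Genes with several starts have more windows that can hold a motif. Windows of 1 gene overlap in part, so the 6 are not independent. In Prss23 it is 1 site shared by 2 overlapping windows, and most windows of Prss23 lacked the motif. In F3 the motif occurred at 2 places, beginning 146 and 135 bases before the start. The motif began 69 bases before the start in Plaur, 204 in F2r and 146 in the Prss23 window shown. The Sp1 motif GGGCGG was in 10 of the 15 windows and in 32.7% of all windows. CACGTG, an E-box that the pigment cell regulator Mitf can bind, was in 0 of the 15 windows and 6.02% of all. The related CATGTG was in 1 window, of Tfpi2, and in 12.3% of all windows. The NF-kB motif and the cAMP response motif TGACGTCA were in 0 of the 15 windows, against 1.41% and 1.55% of all windows. The TATAAA motif was in 1 window, of Tfpi, and in 12.4% of all. All motifs were searched on both strands, and none contains another. A match is a run of letters and does not show that a factor binds there.

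Values are the authors' probe set signals, scaled per array, and levels of different probe sets are not comparable with each other. Median signals over the non-control probe sets were 111 and 99.7 in the non-pigmented line and 130 and 126 in the pigmented line. By the 3′ to 5′ ratio of the Gapdh control alone, the arrays fell into 2 classes, called RNA classes below. Each held 1 array of either line. Non-pigmented replicate 1 had a 3′ to 5′ ratio of the Gapdh control of 0.903, and pigmented replicate 1 one of 0.864. The ratio was 20.2 for non-pigmented replicate 2, against 16.8 for pigmented replicate 2, and these 2 are called the arrays with low 5′ signal below. The sample titles also carry 2 dates, each shared by 1 array of either line. Log2 values are log2(signal + 16), and differences are non-pigmented minus pigmented. A gene was represented by its probe set with the highest mean. A gene entered the fit if its mean log2 value reached 6.44, a signal of 70.7, which 40% of the probe sets did not reach.

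F3 and Prss23 were far higher in the non-pigmented line, and F2r was lower there. The plasminogen activators Plat and Plau, the receptor Plaur and the inhibitors Tfpi and Tfpi2 differed by about 1 log2 unit or less. In limma's fit across 12558 tested genes, 6 of the 9 genes passed the filter and 3 of these had an adjusted p under 0.05, 2 of them higher and 1 lower. The same was true of 3.36% of all tested genes, 2.03% higher and 1.33% lower. Since this contrast was known when the genes were chosen, nothing is read from that count. F3 and Prss23 passed the filter through the non-pigmented line, as their pigmented means lay below 6.44. In RNA of a whole culture, fewer cells of a kind and less RNA per cell cannot be told apart.

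**Figure D1:**
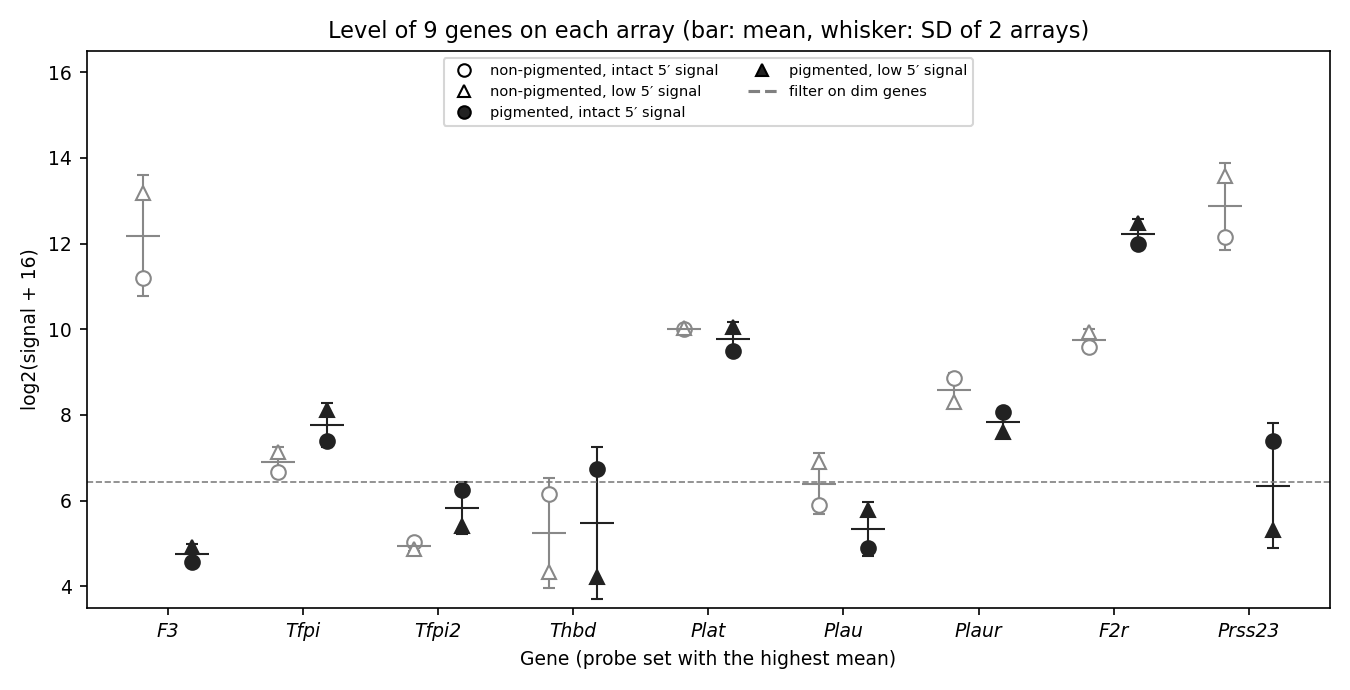
Level of each gene as log2(signal + 16) on the 4 arrays, non-pigmented (open) left of pigmented (filled), with circles for arrays with intact and triangles for arrays with low 5′ signal. Horizontal bars are means of 2 arrays, whiskers their SD, and the dashed line is the filter at 6.44. F3 and Prss23 lie above the filter in the non-pigmented line and near or below it in the pigmented line, and Thbd separates by symbol shape and not by line.

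F3 was measured by 1 probe set. It read 2321 on non-pigmented replicate 1 and 9249.8 on non-pigmented replicate 2, against 7.70 and 14.4 on the pigmented arrays. Both pigmented arrays were dim, and the groups did not overlap. Mean log2 values were 12.18 ± 1.41 in the non-pigmented and 4.75 ± 0.25 in the pigmented line (SD, n = 2 each). The difference was 7.44 ± 0.70 (SE). No fold is given, as the pigmented signals could not be separated from background. The difference depends on the pseudocount, since the pigmented signals are smaller than 16: it was 8.64 with a pseudocount of 1 and 5.97 with 64.

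Tfpi encodes the inhibitor that blocks factor Xa and the tissue factor complex. Its brightest probe set had signals of 85.3 and 125 in the non-pigmented line, against 152 and 262 in the pigmented line. Both non-pigmented arrays lay below both pigmented arrays, with a log2 difference of -0.85 ± 0.48 (SE). The other 3 probe sets of Tfpi had means below the filter and differences of -0.17, -1.29 and -0.65. All 4 probe sets thus had the lower mean in the non-pigmented line, and in 2 of the 4 the groups overlapped.

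Tfpi2, a related Kunitz-type inhibitor of plasmin and trypsin that is laid down in matrix, was dim. Its signals were 16.6 and 13.2 in the non-pigmented line and 60.2 and 26.4 in the pigmented line. The groups did not overlap, and the log2 difference was -0.88, without an SE as the gene was below the filter. With no detection column in the file, such a signal could not be separated from background.

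Thbd encodes thrombomodulin, the receptor that turns thrombin from a clotting enzyme into an activator of protein C. Its signals were 54.8 and 4.30 in the non-pigmented line, against 90.1 and 2.77 in the pigmented line. The arrays divided by RNA class and not by line: the 2 arrays with low 5′ signal held the 2 low values. The difference between the lines was -0.24, with -0.58 within the intact pair and 0.11 between the arrays with low 5′ signal.

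Plat encodes tissue-type plasminogen activator. Its brighter probe set gave signals of 1013 and 1024 in the non-pigmented line and 702 and 1040.2 in the pigmented line. The groups overlapped, with a log2 difference of 0.25 ± 0.43 (SE). The second probe set of Plat read 27.9 and 148 in the non-pigmented line and 31.0 and 184 in the pigmented line. It was high on both arrays with low 5′ signal and low on both intact arrays, a class difference of 1.99, against 0.29 for the first probe set.

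Plau encodes urokinase, the plasminogen activator of migrating cells. Its brighter probe set had signals of 43.4 and 103 in the non-pigmented line and 13.9 and 39.3 in the pigmented line. The groups did not overlap and the difference was 1.05, but the mean of the gene was below the filter. With a pseudocount of 1 the difference was 1.47 and with 64 it was 0.58. It was 0.99 and 1.11 within the RNA classes and 0.10 and 1.99 within the dates. The second probe set of Plau, with signals of 3.99 and 4.97 in the non-pigmented line and 6.13 and 9.35 in the pigmented line, had a difference of -0.21. The signals of the second, and the pigmented signals of the first, were too dim to be separated from background.

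Plaur, the membrane-anchored receptor that holds urokinase at the cell surface, was measured by 1 probe set. Its signals were 452 and 302 in the non-pigmented line, against 253 and 177 in the pigmented line. The groups did not overlap, and the difference was 0.76 ± 0.45 (SE), or 1.69-fold. Within the dates it was 1.27 and 0.24, and within the RNA classes 0.80 and 0.72.

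F2r encodes protease-activated receptor 1, which thrombin cleaves and which couples the clotting cascade to G protein signalling. Its brighter probe set had signals of 752 and 964 in the non-pigmented line, against 4029 and 5663 in the pigmented line. Mean log2 values were 9.76 ± 0.25 in the non-pigmented and 12.23 ± 0.35 in the pigmented line (SD, n = 2 each), a difference of -2.47 ± 0.42 (SE), or 5.52-fold lower. The second probe set read 372 and 416 in the non-pigmented line and 2205 and 1836 in the pigmented line, a difference of -2.31 ± 0.45 (SE). Both probe sets separated the lines without overlap, and both groups lay above the filter.

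Prss23 encodes a secreted serine protease with a trypsin-like domain. Its brightest probe set had signals of 4538 and 12235 in the non-pigmented line, against 151 and 24.0 in the pigmented line. Mean log2 values were 12.87 ± 1.01 in the non-pigmented and 6.35 ± 1.46 in the pigmented line (SD, n = 2 each), a difference of 6.51 ± 0.82 (SE). The 3 probe sets agreed in direction, with differences of 6.51, 6.61 and 3.60. The third, which was the dimmest of the 3, read 431 and 634 in the non-pigmented line and 16.8 and 44.4 in the pigmented line. The lines did not overlap in any of the 3 probe sets.

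**Figure D2:**
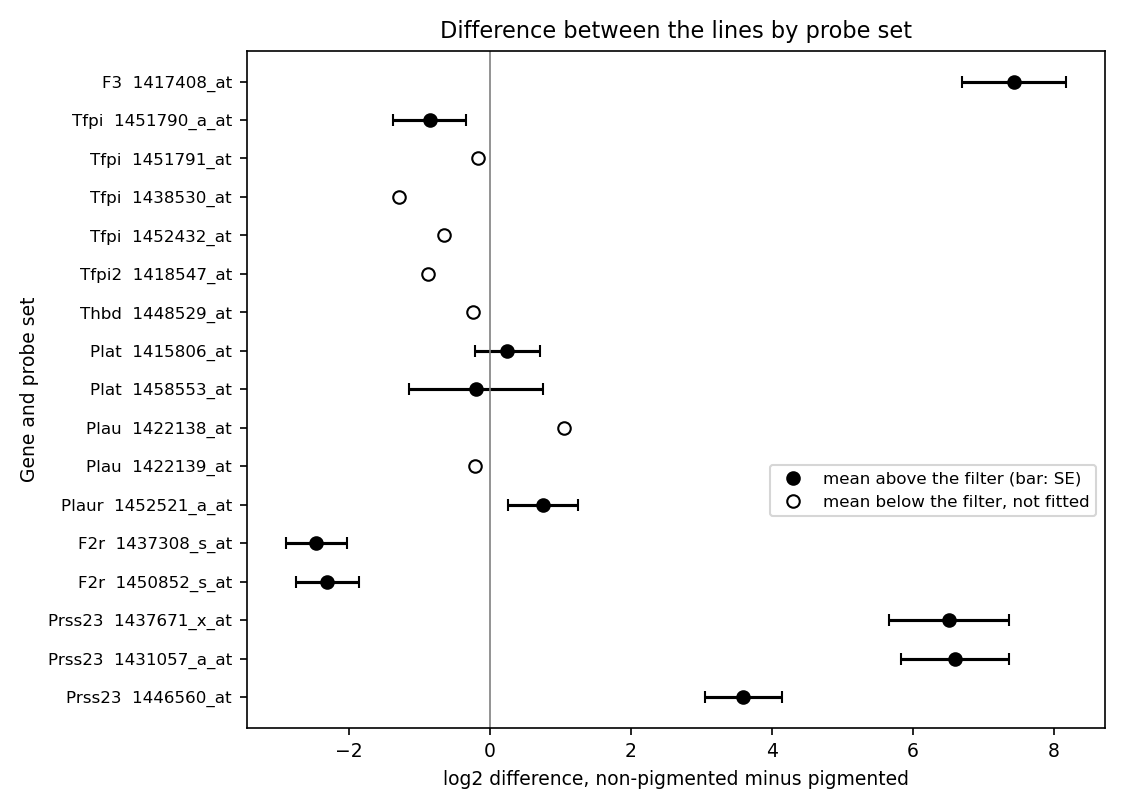
Log2 difference, non-pigmented minus pigmented, of each of the 17 probe sets. Filled points have a mean above the filter and carry limma's SE, and open points lie below the filter and were not fitted. The 3 probe sets of Prss23 (3.60 to 6.61) and that of F3 (7.44) lie on the right, both of F2r (-2.47 and -2.31) on the left, and the remaining probe sets between -1.29 and 1.05.

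In all, 12 of the 17 probe sets did not overlap between the lines, 6 with the higher values in the non-pigmented line and 6 with the lower. Groups did not overlap in 40% of all non-control probe sets. By gene, 7 of the 9 did not overlap, against 43.9% of all tested genes, 19.5% with the higher and 24.4% with the lower values in the non-pigmented line. Among genes with means above the filter in both lines the share was 41.2%. The 9 genes include 3 below the filter, whereas both of these shares are over genes that passed it. These counts too use the contrast known when the genes were chosen, and nothing is read from them. An exact permutation test of 2 arrays against 2 cannot give a two-sided p below 0.333, so none was made for single genes. Over all tested genes the median difference was -0.07 and the SD of the differences 1.12.

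Differences within pairs of arrays show how far each value rests on 1 array. For F3 the difference was 6.62 within the intact pair and 8.25 between the arrays with low 5′ signal, and 6.26 and 8.61 within the first and second date. For Prss23 it was 4.77 and 8.26 within the RNA classes and 6.83 and 6.20 within the dates. For F2r the 4 values were -2.40, -2.53, -2.89 and -2.05 in the same order. These 3 genes had the same direction in both RNA classes and both dates. So did Tfpi, Tfpi2, Plau and Plaur, at smaller sizes, whereas Plat and Thbd changed sign between pairs. In the 7 genes whose groups did not overlap, the shared direction follows from that and is no further evidence. Each date paired an intact array of 1 line with an array with low 5′ signal of the other. Differences within a date thus also hold any difference between the RNA classes. Thbd, with a class difference of -2.15, differed by 1.92 within the first date and by -2.39 within the second.

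**Figure D3:**
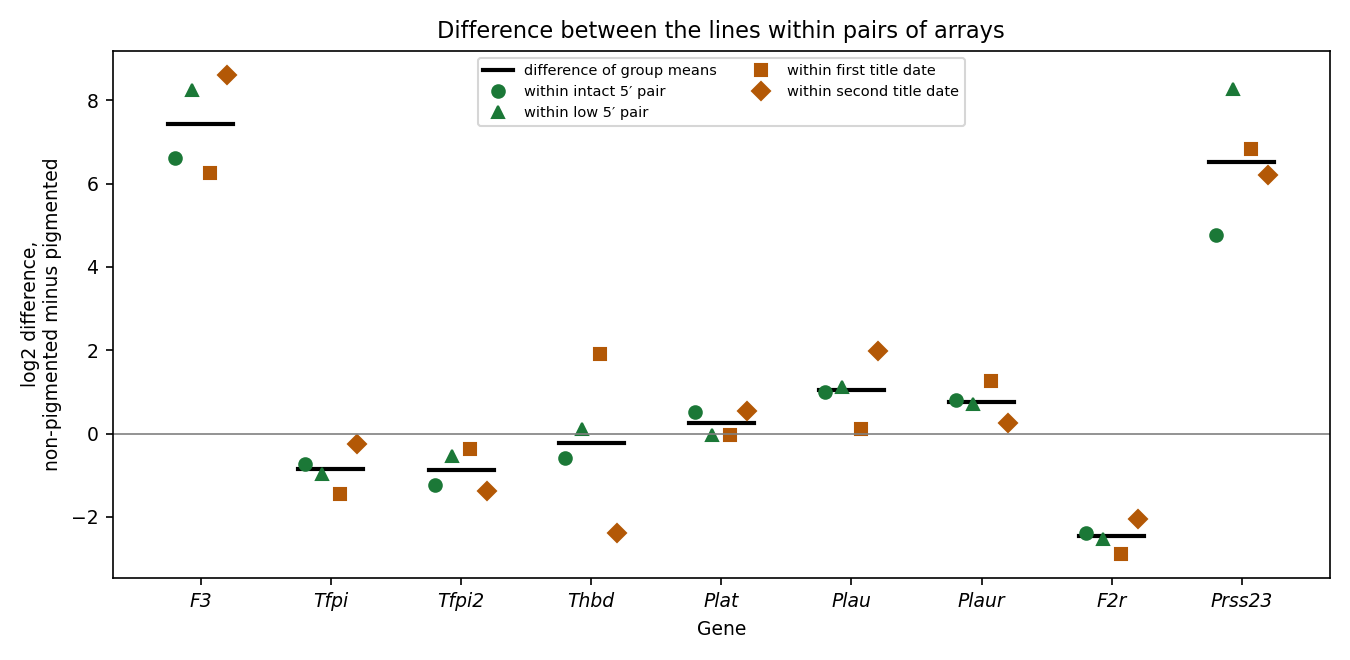
Log2 difference, non-pigmented minus pigmented, of each gene as the difference of group means (bars) and within the 2 RNA classes (green) and the 2 title dates (orange), which are 2 ways of pairing the same 4 arrays. Each date pairs an intact array of 1 line with an array with low 5′ signal of the other. F3 and Prss23 stay above 4.7 and F2r below -2.0 in all 4 pairs, while Thbd spans -2.39 to 1.92.

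The RNA class and the date were not used to choose the genes and could be tested. With the line in the model, 0 of the 6 tested genes had an adjusted p under 0.05 by limma for the class, low 5′ signal minus intact. The same held for 0% of the 12558 genes, although 22.2% of them had an unadjusted p under 0.05. Of the 6 genes, 0 had an unadjusted p under 0.05. F3 had a class difference of 1.17 ± 0.48 (SE) and an adjusted p of 0.234 by limma, which rests in part on pigmented signals too dim to be separated from background. F2r had 0.42 ± 0.26 (SE) and Plaur -0.51 ± 0.33 (SE), with adjusted p-values of 0.398 and 0.413 by limma. Without the filter, the class difference of Thbd was -2.15 ± 0.48 (SE), with an adjusted p of 0.111 by limma.

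Between the dates, second minus first, 0 of the 6 genes and 0% of all tested genes had an adjusted p under 0.05 by limma, and 0.621% had an unadjusted p under 0.05. Among the 6 genes this was 1, Prss23, with 1.75 ± 0.68 (SE), an unadjusted p of 0.0281 and an adjusted p of 1.0 by limma. In a layout of 4 arrays this date term is also the difference between the lines in the effect of the RNA class, divided by 2. Prss23 was higher on the array with low 5′ signal than on the intact array in the non-pigmented line (12235 and 4538), and lower in the pigmented line (24.0 and 151). These class effects were 1.43 in the non-pigmented and -2.06 in the pigmented line, and their difference of 3.49 did not pass the correction over all genes. The signal of 24.0 was dim.

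The labelled cell type was compared with its markers. By limma 3.36% of all tested genes were called, 2.03% higher and 1.33% lower in the non-pigmented line. Of 12 melanocyte markers tested, 9 were lower in the non-pigmented line and 3 did not pass (Slc45a2, Tyrp1 and Sox10). Kit passed the filter through the pigmented line, with a non-pigmented mean of 6.38. The summed signal of the 12 was 15923 and 27203 in the non-pigmented line, against 164645 and 152498 in the pigmented line. Of 8 Schwann cell and progenitor markers tested, 5 were higher in the non-pigmented line (Nes, Mbp, S100b, Pmp22 and Sox2). The other 3 did not pass, with differences of -1.76 for Mal, 2.42 for Gfap and 0.59 for Cdh19. Nes and Sox2 passed the filter through the non-pigmented line, as their pigmented means of 6.17 and 5.08 lay below 6.44. The summed signals of the list were 22761 and 27736 in the non-pigmented line and 2561 and 3555 in the pigmented line. The sums of both lists differed between the same lines as F3, Prss23 and F2r, and their part in those differences was not tested. Endothelial cells carry much of the body's thrombomodulin and Tfpi. Of 9 endothelial markers, 8 were below the filter, and the sum was 374 and 512 in the non-pigmented line and 789 and 607 in the pigmented line. Of these sums Vwf made up 2.64 and 4.09 in the non-pigmented line, against 221 and 76.2 in the pigmented line. Of the markers of other skin and tissue cells that passed the filter, limma called 0 of 4 for fibroblasts, 1 of 4 for keratinocytes (Krt10, higher), 0 of 5 for immune cells and 0 of 3 for muscle. At an unadjusted p under 0.05 these counts were 1, 2, 1 and 2, a level that 13.8% of all tested genes reached in this contrast. Krt10 passed the filter through the non-pigmented line, with a pigmented mean of 5.21. No marker of any list was at 0, but this does not show that each was expressed, as dim signals could not be separated from background.

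The 5 tested genes with the pattern nearest to that of F3 were Lcn2, Fgfr1, Tgm2, Atp1b2 and Plxnb3. Nearness is the Euclidean distance between log2 values centred on each gene's mean, over 4 arrays in 2 groups, and it ran from 0.76 for Lcn2 to 1.40 for Plxnb3. Lcn2, a secreted iron-binding lipocalin, had signals of 4388 and 15745 in the non-pigmented line, against 35.0 and 86.8 in the pigmented line. In both genes non-pigmented replicate 2 exceeded replicate 1 several-fold. Of all tested genes, 20 lay within 2 log2 units of F3. With 4 points such a likeness says little beyond the size of the difference between the lines.

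Neighbouring genes, taken by order of start position in the RefSeq annotation, were compared with the 3 genes of the largest differences. Next to F3, Abcd3 had a log2 difference of 0.17 ± 0.43 (SE) and Arhgap29, beyond it, -0.47 ± 0.41 (SE). Next to Prss23, Fzd4 had 1.52 ± 0.48 (SE) and Me3 1.58 ± 0.71 (SE), and Tmem135, beyond Fzd4, had -0.06 ± 0.51 (SE). F2r lies beside F2rl1 in a cluster of receptor genes, with Iqgap2 on its other side at -1.46 ± 0.86 (SE). The receptor gene F2rl2, whose start position follows that of Iqgap2, had -0.38 ± 0.52 (SE) and an adjusted p of 0.835 by limma. None of these 7 neighbours had an adjusted p under 0.05 by limma, and the lowest was 0.219 for Fzd4.

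The wider system was described with 100 other genes in 7 lists, of which 95 were on the array and 64 passed the filter. By limma 4 of the 64 rose in the non-pigmented line and 1 fell, or 7.81%, against 3.36% of all tested genes, with a median difference of 0.12, against -0.07 over all genes. At an unadjusted p under 0.05 it was 17 of the 64, against 13.8% of all tested genes. The 4 were Serpinb2, Lrp1, Arrb1 and Itga3, and the 1 that fell was Prss12. Serpinb2 and Arrb1 passed the filter through the non-pigmented line, as their pigmented means of 4.59 and 6.29 lay below 6.44. The lists were chosen with earlier results of these data known, so nothing is read from their shares, here or under the settings that follow. With the RNA class as a block the count was 11 higher and 1 lower, or 18.8%, against 7.04% of all genes in that fit. With the title date as a block it was 3 and 0, or 4.69% against 3.12%. Without non-pigmented replicate 1 it was 2 and 0 (3.17% against 1.93% of all genes), and without non-pigmented replicate 2 also 2 and 0 (3.08% against 1.63%). Without pigmented replicate 1 it was 12 and 2 (21.5% against 6.40%), and without pigmented replicate 2 it was 6 and 1 (10.4% against 4.78%).

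Of 9 tested genes of fibrinolysis and plasminogen binding, 2 rose and 7 did not pass, with a median of 1.004. Serpinb2, which encodes an inhibitor of urokinase and tissue-type activator, had signals of 1062 and 561 in the non-pigmented line and 3.47 and 13.9 in the pigmented line. Both pigmented arrays were dim, and the difference was 5.03 ± 0.52 (SE) with an adjusted p of 0.00822 by limma. Its size depends on the pseudocount, with 6.56 at a pseudocount of 1 and 3.53 at 64. Without either non-pigmented array, Serpinb2 was below the filter and not tested. Lrp1 encodes a large endocytic receptor that clears complexes of the activators with their inhibitors. Its signals were 3837 and 4977 in the non-pigmented line, against 63.7 and 206 in the pigmented line, a difference of 5.04 ± 0.59 (SE) with an adjusted p of 0.0110 by limma. Both probe sets of Lrp1 had this direction. Masp1 (1.71 ± 0.64) and Serping1 (-1.09 ± 0.43), which encode a complement protease and the C1 inhibitor, did not pass. For Masp1, 3 of 5 probe sets had that direction. Anxa2 and S100a10, which together form a surface receptor for plasminogen, had differences of 1.004 and 0.12 and did not pass. Plg, the gene of plasminogen, was below the filter.

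The clotting factors themselves were mostly too dim to be tested. Of 18 genes of clotting factors and their cofactors, 13 were below the filter, and limma called 0 of the 5 tested. At an unadjusted p under 0.05, which 13.8% of all tested genes reached, there was 1. That gene was Ggcx, the carboxylase that the vitamin K-dependent factors need, at 1.30 ± 0.40 (SE). Vkorc1, which recycles vitamin K, had 0.82 ± 0.36 (SE). F7 and F10, the partners of tissue factor in the first step of clotting, were below the filter. So was Vwf, which read 2.64 and 4.09 in the non-pigmented line, against 221 and 76.2 in the pigmented line. Its difference of -2.93, the largest of this list, has no SE, and its non-pigmented signals were too dim to be separated from background. Of 9 anticoagulant genes 5 were tested, and limma called 0. At the same unadjusted level there was 1. It was Procr, the protein C receptor that works beside thrombomodulin. Its signals were 364 and 463 in the non-pigmented line, against 23.5 and 91.3 in the pigmented line. The difference was 2.71 ± 0.59 (SE) with an adjusted p of 0.0777 by limma. Procr too passed the filter through the non-pigmented line, with a pigmented mean of 6.03. With the RNA class as a block the adjusted p of Procr by limma was 0.0314, and with the date as a block 0.0672. It was 0.105 with a pseudocount of 1 and 0.142 with no filter. When single arrays were left out, the difference of Procr ran from 1.99 to 3.43.

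Of 13 tested genes of other protease-activated receptors, their G proteins and partners, Arrb1 rose and 12 did not pass, with a median of 0.03. Arrb1 encodes a beta-arrestin, which uncouples activated receptors such as F2r from G proteins. It read 830.3 and 3435 in the non-pigmented line and 69.3 and 55.5 in the pigmented line. The groups did not overlap, as in 43.9% of all tested genes, and the difference was 4.45 ± 0.70 (SE) with an adjusted p of 0.0286 by limma. Arrb1 passed the filter through the non-pigmented line, as its pigmented mean of 6.29 lay below 6.44. Plcb1, a phospholipase C that acts downstream of these receptors, had 1.35 ± 0.42 (SE). The G protein gene Gna13 had 1.03 ± 0.48 (SE), and neither gene passed. For Plcb1, 3 of 5 probe sets had this direction, and with the mean of its probe sets the difference was 0.38. The receptor gene F2rl3 was below the filter.

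**Figure D4:**
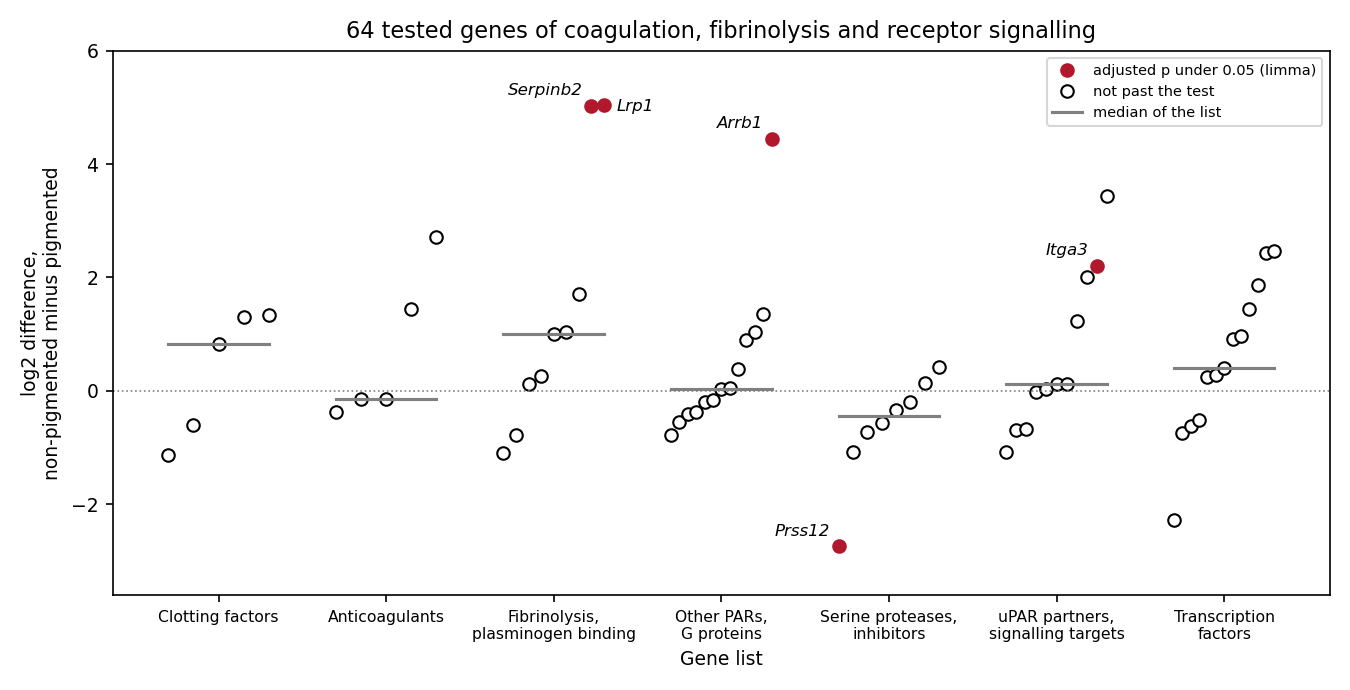
Log2 difference, non-pigmented minus pigmented, of the 64 tested genes in 7 lists, ordered by size within each list, with red points for an adjusted p under 0.05 by limma and grey lines for list medians. PARs are protease-activated receptors and uPAR is the urokinase receptor. Serpinb2 (5.03), Lrp1 (5.04), Arrb1 (4.45) and Itga3 (2.21) rose and Prss12 (-2.74) fell.

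Of 8 tested genes of other serine proteases and their inhibitors, Prss12 fell and 7 did not pass, with a median of -0.45. Prss12 encodes neurotrypsin, a secreted protease that cleaves agrin. Its signals were 322 and 654 in the non-pigmented line, against 3819 and 2636 in the pigmented line, a difference of -2.74 ± 0.51 (SE) with an adjusted p of 0.0474 by limma. With the date as a block its adjusted p was 0.0697, with a pseudocount of 1 0.0551, with no filter 0.0619 and with median centring 0.0661, and without non-pigmented replicate 1 or 2 it was 0.227 and 0.0830. Prss12 and Prss23 thus lay on opposite sides.

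Among 11 tested partners of the urokinase receptor and targets of receptor signalling, Itga3 rose and 10 did not pass, with a median of 0.12. Itga3, an integrin subunit that associates with the urokinase receptor, read 1142 and 942 in the non-pigmented line and 190 and 236 in the pigmented line. The difference was 2.21 ± 0.42 (SE) with an adjusted p of 0.0491 by limma, and 2 of its 3 probe sets had this direction. With the mean of its probe sets the difference was 1.19, with an adjusted p of 0.265. The call was also lost with a pseudocount of 1 (0.0542), no filter (0.0834) and robust eBayes (0.0537). With the date as a block the adjusted p was 0.136. It was 0.257 and 0.185 without non-pigmented replicate 1 or 2, and 0.0684 without pigmented replicate 1. Hbegf and Ccn2, growth factor genes that thrombin receptors induce in other cells, had 2.01 ± 0.57 and 3.43 ± 1.10 (SE) and did not pass. With the RNA class as a block they had adjusted p-values of 0.0219 and 0.0348 by limma, and with the date as a block of 0.3035 and 0.119. No other setting that kept all arrays gave a call for either. When single arrays were left out, the difference ran from 1.42 to 2.61 for Hbegf and from 1.72 to 5.15 for Ccn2.

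Of 13 tested transcription factors of the phorbol ester and growth factor response, limma called 0, and their list had a median of 0.41. At an unadjusted p under 0.05, which 13.8% of all tested genes reached, there were 5. Klf2 and Klf4, Krüppel-like factors that induce thrombomodulin in endothelium, had 2.44 ± 0.52 and 2.47 ± 0.54 (SE), with adjusted p-values of 0.0726 and 0.0825 by limma. With the RNA class as a block these were 0.0234 and 0.0137, and without pigmented replicate 1 0.0108 and 0.0127. Of the AP-1 subunit genes in this list, 6 were tested and limma called 0. Their differences were 1.88 for Jun, 0.41 for Junb, 0.97 for Jund, 0.24 for Fos, 0.92 for Fosb and -2.28 for Fosl2. The groups overlapped for Junb, Fos and Fosb. Fosl1, which was below the filter, had signals of 305 and 150 in the non-pigmented line, against 9.33 and 16.6 in the pigmented line. For Fosl1, and also for Jund, only 1 of 2 probe sets had the direction given.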

How the data were processed

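Total RNA of 4 melanocyte samples was measured on Affymetrix Mouse 430_2 arrays, and 45037 non-control probe sets were used. The deposited values are intensities that the authors made with Affymetrix Expression Console, per the submitters' processing notes. Its version, summary method and settings are not given in the sources used here. In the deposited columns the 2% trimmed mean was 500, so no further scaling was made. Signals were turned into log2(signal + 16). Each of 18193 genes with a probe set annotated to 1 symbol was represented by its probe set with the highest mean. Genes under the 40th percentile were left out. The fit over the other 12558 used lmFit and eBayes with trend (limma 3.58.1, R 4.3.3), with Benjamini-Hochberg adjustment. From each list the called genes and up to 2 more with the smallest p are named, others for their role, and the 5 genes nearest to F3. Promoter windows are those of RefSeq. The genes and lists were chosen with earlier results of these data known. The fit was tested on simulated data. The number of arrays limits the precision. Alternatives covered the pseudocount, filter, scaling, probe set rule, eBayes options, blocks and leaving out arrays.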

Additional observations from a re-analysis of the deposited data

How the results depend on the processing

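Over 16 alternatives the log2 differences were 5.97 to 8.64 for F3 and 3.60 to 7.55 for Prss23. F2r ranged from -2.71 to -2.22 over 15 alternatives. The count of chosen genes that were lower was 0 instead of 1 with median centring, with the title date as a replicate block, and with probe sets without a shared-transcript suffix, where F2r has no probe set left. It ranged from 0 to 1 when single arrays were left out, and was 0 without non-pigmented replicate 1 or 2 or pigmented replicate 2. These genes were chosen on this contrast, so nothing is read from that count. The labels give no replicate numbers, so the title date and the RNA class, set by the Gapdh control ratio, served as replicate blocks. Over all genes, 255 were higher and 167 lower, against 543 and 341 with the class block, and 97 to 539 and 95 to 270 when single arrays were left out. Of the list genes, 4 were higher and 1 lower. With the class block 11 were higher, and 3 to 5 under the other settings that keep all arrays, and with pseudocount 1, no filter, median centring or the date block 0 were lower. Leaving out single arrays gave 2 to 12 higher and 0 to 2 lower. Masp1 reversed to -0.33 with probe sets without a shared-transcript suffix. It was -0.32 without non-pigmented replicate 1, -0.34 without non-pigmented replicate 2 and 2.56 without pigmented replicate 1. The brightest probe set was chosen anew from the arrays kept, and the negative values are those of another Masp1 probe set. Its main probe set read 260 and 314 in the non-pigmented line, against 150 and 35.3 in the pigmented line, without overlap. For the RNA class, limma called 0 genes, but 27 with a pseudocount of 64, 671 after quantile normalization and 1047 after median centring, 0 of them among the chosen genes. Median centring moved the median difference of all tested genes by 0.24, from -0.07 to 0.18. Apart from the shared-transcript rule and the change of probe set for Masp1, the cause of these changes was not tested. Dim signals limit Tfpi2, Thbd and Plau, which lay below the filter, and the pigmented levels of F3.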
